A study of Homo sapiens with 8 samples.

Results

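Translation factor genes were examined for the poly(A) sites at which their mRNAs can end. The members were all genes of either deposited table whose symbol begins with EIF or EEF and a digit, or is ETF1 or GSPT with a digit, without EIF4A3, pseudogenes and antisense genes. The pattern matched 55 genes, of which EIF3J-DT and EIF4BP7 were left out because they are not protein-coding. The remaining 53 genes were among 7504 genes listed in either table, and 46 of them were listed in both. The table comparing MDA-LM2 with MDA-MB-231 cells held 47 of the 53 among 6541 genes, and the table comparing sgHNRNPC with sgControl cells held 52 among 6801 genes.

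The study profiled mRNA 3′ ends in 8 samples, with 2 replicates in each of 4 groups. MDA-MB-231 is a triple-negative breast cancer cell line of low metastatic potential, and MDA-LM2 is a derivative of it selected for metastasis to the lung. The sgControl and sgHNRNPC groups are MDA-MB-231 cells that express a silencing dCas9-KRAB fusion with either a non-targeting guide RNA or one against HNRNPC, so that both carry the fusion and a guide. HNRNPC is an RNA-binding protein that prefers runs of uridine, and silencing in this way lowers transcription of the gene without deleting it. The study describes its sequencing experiments as biological duplicates, and the labels do not say whether these were separate cultures. The tables give, for each gene, pairs of poly(A) sites and the authors' own test of the change in their use, and no value of any single sample. Read depth per sample, the spread between replicates and the level of HNRNPC itself therefore cannot be read from the tables, and no difference between groups of cells was tested. What follows describes which sites are listed, where they lie and what sequence surrounds them.

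Initiation factors bring the initiator tRNA, the small ribosomal subunit and the capped mRNA together, elongation factors carry the ribosome along the coding sequence, and termination factors release the finished chain. When an mRNA is made, a multi-protein complex reads a hexamer, most often AAUAAA or AUUAAA, and cuts the transcript a short way downstream of it. A gene with several such sites can make mRNAs that share a coding sequence and differ in the length of the 3′ UTR, or, where the site lies before the last exon, mRNAs that differ in coding sequence as well.

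Listed ends at the annotated 3′ end of a reference transcript are shown first, for genes that had many listed sites within their role. Each line gives the last 30 nt of the sense strand up to a listed transcript end in GRCh38, with the hexamer AATAAA or ATTAAA in capitals. These are ends at the last base of the reference transcript of the gene, which is the MANE Select transcript, the one agreed on between annotation groups.
EEF1A1 on chr6:73515750-73515779, minus strand: tcactacAATAAAtgaattttaagctttaa
EEF2 on chr19:3976056-3976085, minus strand: attggaatAATAAAtttgataaggtggtga
EIF5B on chr2:99401297-99401326, plus strand: caagAATAAAgtcaaatgccatattccaaa
EIF5 on chr14:103344996-103345025, plus strand: tttAATAAAgtgtgaaagttgtcaatcaaa
EIF2AK2 on chr2:37099210-37099239, minus strand: cttgaAATAAAtgtttattagaaaaaccaa
EIF3A on chr10:119033670-119033699, minus strand: ttggtttAATAAAtcaaatctatgacaaaa
GSPT1 on chr16:11868128-11868157, minus strand: acAATAAAagttgtcatcttcccttttgaa

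Each of the ends above held the hexamer, starting between 22 and 28 nt before the listed end. The next set, from the same genes and from EIF4A2, EIF4E and EIF2S1, shows listed ends that lie upstream of the reference end in the last exon. The EIF4A2 end lies 3 nt before the reference end, the second GSPT1 end is the last base of the stop codon, and the others lie in the 3′ UTR.
EIF5 on chr14:103341327-103341356, plus strand: ataaaAATAAAggtttgattttggtcgttc
GSPT1 on chr16:11872679-11872708, minus strand: taccatgttAATAAAatattcaatttgaaa
GSPT1 on chr16:11873119-11873148, minus strand: gttctgaaactggttccagagaaagactaa
EIF4A2 on chr3:186789865-186789894, plus strand: tgaatgttaAATAAAttgtatattcacttt
EIF4E on chr4:98880765-98880794, minus strand: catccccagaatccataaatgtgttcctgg
EIF2S1 on chr14:67384093-67384122, plus strand: ggttctgtgccttttatctatttgagattg
The hexamer was present in EIF5, in 1 of the GSPT1 ends and in EIF4A2, and these letters were not in the last 30 nt of the other 3.

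A further set stops at an exon border. Each line gives the last 15 nt before the listed end and the 15 nt after it in the genome, and the capitals mark the first bases after the end.
EIF5 on chr14:103336835-103336864, plus strand: cctgaaacagatttgGTaagtgcttttgtg
GSPT1 on chr16:11883000-11883029, minus strand: atgatgccaaacaagGTaagaatcggttat
Both of these ends are the last base of an earlier exon of the reference transcript. Each is followed by GT, the dinucleotide with which nearly all introns begin. The EIF5 transcript is marked in the annotation as not reaching the end of the mRNA.

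The 53 genes carried many listed sites. The MDA-LM2 table held 179 sites in 47 genes, with a median of 3 per gene and at most 9, against a median of 3 and at most 15 over all genes. The sgHNRNPC table held 208 sites in 52 genes, with a median of 4.0 and at most 9, against a median of 3 and at most 14. Genes with 5 or more sites made up 31.9% of the members in the MDA-LM2 table, or 15 of 47, beside 13.3% of all genes. In the sgHNRNPC table they made up 40.4%, or 21 of 52, beside 16.3%. Only genes with at least 2 sites can form a pair, and exactly 2 were listed for 17 members in the MDA-LM2 table, as they were for 19 in the other. These were 36.2% and 36.5% of the members, beside 47.1% and 45.0% of all genes. The authors' pairs set every site of a gene against every other and placed the sites in 1 order from proximal to distal, so that a gene with 9 sites gave 36 pairs. The members gave 337 of 27016 pairs in the MDA-LM2 table and 416 of 31148 pairs in the sgHNRNPC table. No test was made of any difference between the members and all genes, since the tables give no independent samples of genes.

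**Figure D1:**
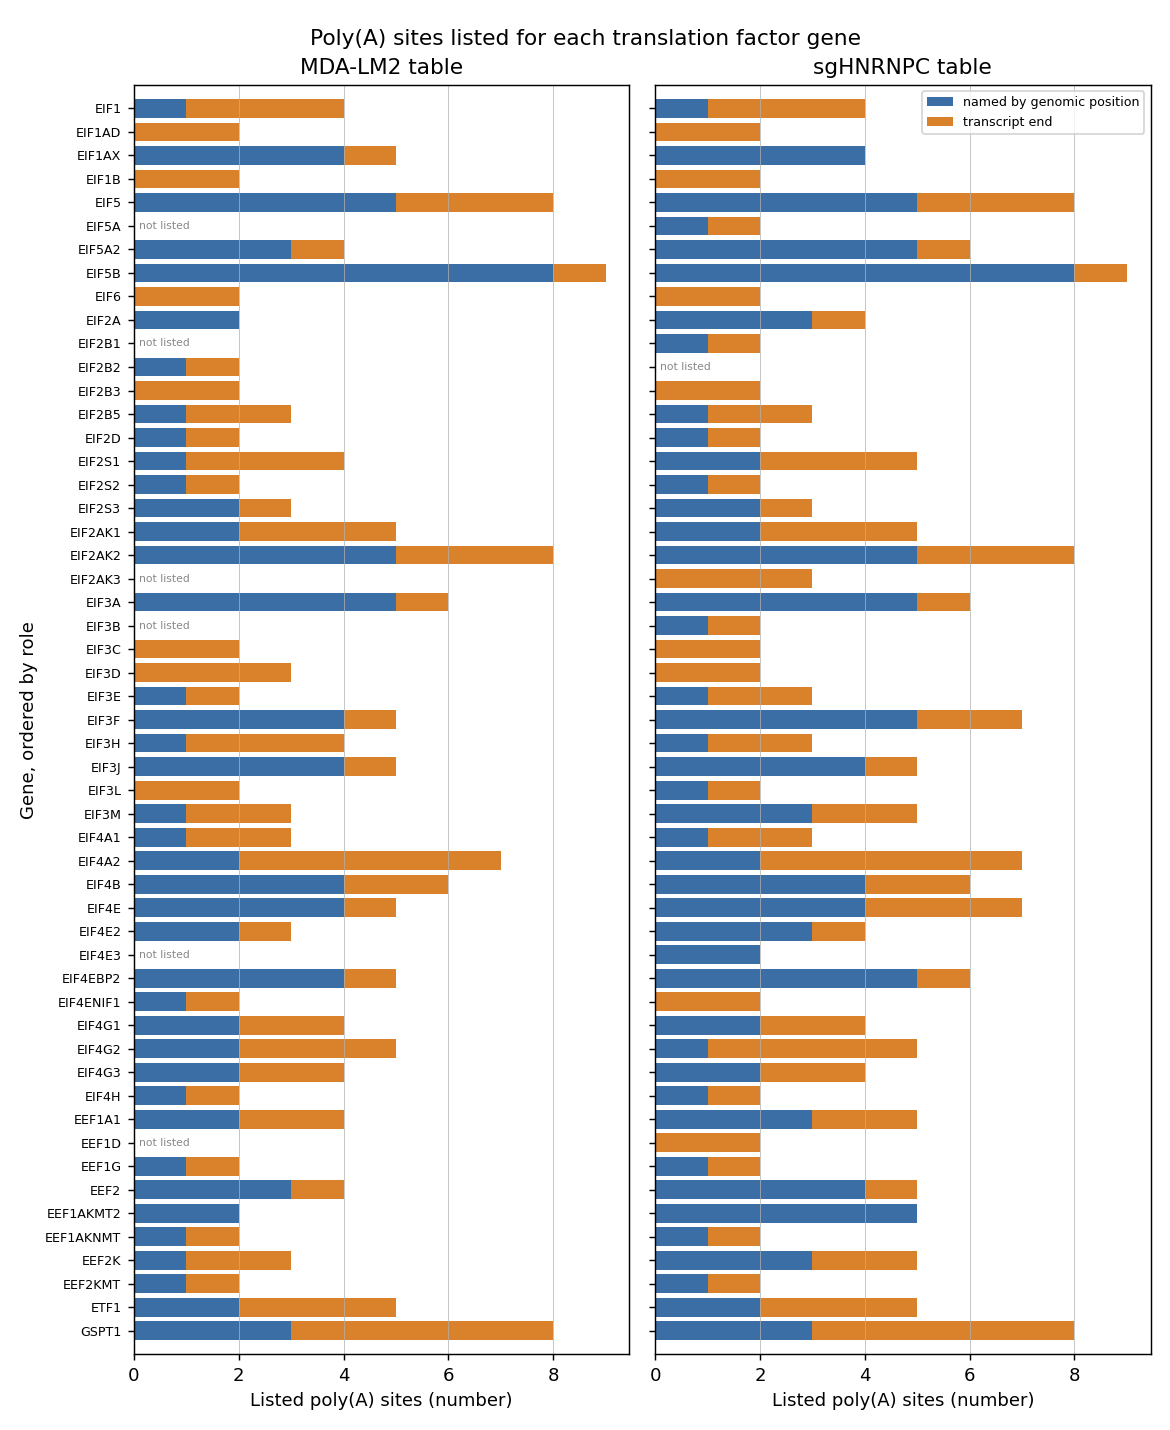
Number of listed poly(A) sites (x axis) for each of the 53 translation factor genes (y axis, ordered by role) in the 2 tables, split into sites named by a genomic position and sites named by a transcript end. EIF5B had the most sites, 9 in each table, and genes written as not listed are absent from that table.

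Factors that select the start codon and join the ribosomal subunits, counted together with EIF5A, EIF5A2 and EIF6, had 36 sites in 8 genes of the MDA-LM2 table, and the sgHNRNPC table listed 39 in 9 genes. EIF5B, the GTPase that joins the large subunit, had 9 sites in each table, 8 of them genomic positions spread over 37041 nt and the last its reference end. EIF5B's 8 positions lay 0, 7867, 15549, 26842, 34950, 35945, 36370 and 37041 nt from the first. They form a loosely spaced group followed by a denser one near the 3′ end, where the smallest gap was 425 nt. EIF5, the GTPase-activating protein for eIF2, had 8 sites in each table, 5 genomic positions within 4442 nt and 3 transcript ends. EIF5's order ran from the exon-border end through a first genomic position and the 3′ UTR end to the other 4 positions and the reference end.

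Of the others in that role, EIF1AX, which keeps the scanning ribosome open to inspect codons, had 5 sites in the MDA-LM2 table against 4 in the sgHNRNPC table. EIF1, which guards the accuracy of start codon choice, had 4 in each. EIF5A2, a homologue of the factor that frees ribosomes stalled on difficult peptides, had 4 sites in the MDA-LM2 table against 6 in the sgHNRNPC table. EIF5A itself had 2 sites, in the sgHNRNPC table alone. EIF1AD, EIF1B and EIF6, the last an anti-association factor of the large subunit, had 2 sites in each table, all of them transcript ends.

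The products of the eIF2 and eIF2B genes bring in the initiator tRNA and recharge eIF2 with GTP. The MDA-LM2 table listed 20 sites in 8 of these genes, and the sgHNRNPC table listed 23 in 8. EIF2S1, the alpha subunit that stress kinases phosphorylate, had the most, 4 and 5. The extra EIF2S1 site of the sgHNRNPC table was a genomic position 500 nt upstream of the position that both tables share. EIF2S3, the gamma subunit, had 3 sites in each table and EIF2S2, the beta subunit, had 2. Among the eIF2B subunits, EIF2B5 had 3 sites and EIF2B3 had 2 in each table. EIF2B2 was listed in the MDA-LM2 table alone and EIF2B1 in the sgHNRNPC table alone, each with 2 sites. EIF2D, an alternative tRNA delivery factor, had 2 sites in each table. EIF2A, another factor with initiator tRNA binding, had 2 sites in the MDA-LM2 table, 16595 nt apart, and 4 in the sgHNRNPC table.

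The kinases of eIF2 alpha were represented by 3 genes. EIF2AK2, or PKR, which senses double-stranded RNA, had 8 sites in each table and 28 pairs. EIF2AK2 shared 7 of its sites between the tables. The eighth was in the MDA-LM2 table a position 536 nt upstream of a shared one, and in the sgHNRNPC table a position 535 nt downstream of the same one. EIF2AK1, the haem-regulated kinase, had the same 5 sites in each table, and EIF2AK3, or PERK, the kinase of the unfolded protein response, had 3 in the sgHNRNPC table alone.

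The eIF3 genes encode the scaffold that holds the small subunit and the mRNA together. They had 32 sites in 9 genes of the MDA-LM2 table and 37 in 10 genes of the sgHNRNPC table. EIF3A, the largest scaffold subunit, had the same 6 sites in each table, 5 genomic positions over 15667 nt and the reference end. EIF3F had 5 sites in the MDA-LM2 table against 7 in the sgHNRNPC table. EIF3J, a loosely bound subunit, had the same 5 sites in each table, and EIF3M had 3 and 5. EIF3H had 4 and 3, EIF3D 3 and 2, and EIF3E 2 and 3. EIF3C and EIF3L had 2 sites in each table, and EIF3B had 2 in the sgHNRNPC table alone.

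The genes of the cap-binding complex eIF4F and its regulators formed the role with the most members and the highest total of sites. The MDA-LM2 table listed 46 sites in 11 genes, and the sgHNRNPC table listed 52 in 12 genes. The median was 4 sites per gene in either table, below the 6.5 of the termination factors in each table and the 6.5 and 5 of the eIF2 alpha kinases. EIF4A2, a helicase that unwinds 5′ UTRs, had 7 sites in each table. Its 5 listed transcript ends were all annotated as retained-intron transcripts, and they lay 3, 420, 1390, 2511 and 3681 nt upstream of the reference end. EIF4A1, the paralogue of EIF4A2, had 3 sites. EIF4B, a cofactor of the helicases, had 6 sites in each table, 4 of them genomic positions over 13536 nt. EIF4E, which binds the cap, had 5 sites in the MDA-LM2 table against 7 in the sgHNRNPC table. EIF4EBP2, which sequesters eIF4E, had 5 and 6.

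The scaffold genes EIF4G1 and EIF4G3 had 4 sites in each table, and EIF4G2, a relative without the part that binds eIF4E, had 5. EIF4E2, a cap-binding homologue, had 3 and 4 sites. EIF4ENIF1, which carries eIF4E into the nucleus, and EIF4H, a second helicase cofactor, had 2 each. EIF4E3 had 2 genomic positions in the sgHNRNPC table alone.

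The elongation factors proper had 10 sites in 3 genes of the MDA-LM2 table and 14 in 4 genes of the sgHNRNPC table. The medians were 4 and 3.5 per gene. EEF1A1, which delivers aminoacyl-tRNA, and EEF2, which translocates the ribosome, had 4 sites in the MDA-LM2 table against 5 in the sgHNRNPC table each. EEF1G had 2 in each table, and EEF1D had 2 in the sgHNRNPC table alone. EEF1G and EEF1D encode subunits of the exchange factor of eEF1A. Among the enzymes that modify elongation factors, EEF2K, the kinase that inhibits eEF2, had 3 and 5 sites, and EEF1AKMT2, a lysine methyltransferase of eEF1A, had 2 and 5. EEF1AKNMT and EEF2KMT, which also methylate elongation factors, had 2 each. The termination factors had 13 sites in each table. GSPT1, or eRF3a, the GTPase of termination, had 8 sites and ETF1, or eRF1, which recognises stop codons, had 5.

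Not every gene of these families was listed. EIF1AY, EIF5AL1, EIF2B4, EIF2AK4, EIF3CL, EIF3G, EIF3I, EIF3K, EIF4EBP1, EIF4EBP3, EEF1A2, EEF1B2, EEF1E1, EEF1AKMT1, EEF1AKMT3, EEF1AKMT4 and GSPT2 were in neither table, and whether they have a single site or fell below a filter of the authors is not given in the sources used here.

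The same sites were listed in both tables for 25 of the 46 genes present in both, which was 54.3% beside 53.3% of all genes. By site, 166 of the 206 listed for these 46 genes were in both tables, which was 80.6% beside 80.4% of all genes. Of the other sites, 11 were in the MDA-LM2 table alone and 29 in the sgHNRNPC table alone. Over all genes these numbers were 1584 and 2537. The sites of the sgHNRNPC table alone comprised 21 genomic positions and 8 transcript ends, and those of the MDA-LM2 table alone comprised 6 and 5. Over all genes the former comprised 1737 positions and 800 ends, and the latter 718 and 866.

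EEF1AKMT2 had the largest difference in number of sites, 2 against 5. Its positions 0 and 406 nt from the first were in both tables, and positions at 1214, 1963 and 2582 nt were in the sgHNRNPC table alone. In EIF4E, the MDA-LM2 table alone held a position 49498 nt upstream of the first shared one. The sgHNRNPC table alone held in EIF4E a position 1062 nt downstream of that shared position and 2 transcript ends, 1 of them the most distal site of the gene. EIF3F had in the sgHNRNPC table alone a position 4254 nt from its first and a transcript end 10 nt downstream of its reference end. These were the most distal sites of EIF3F, so that its distal end differed between the tables.

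EIF3M had positions at 1162 and 2326 nt from its first in the sgHNRNPC table alone, and EIF5A2 had positions at 2013 and 3068 nt. EEF2K had 2 further positions in the sgHNRNPC table, 1558 nt apart, both upstream of the shared one. EIF2A had there a position 701 nt downstream of its second and its reference end. EEF2 shared 3 sites, and had 1 position in the MDA-LM2 table alone and 2 in the sgHNRNPC table alone. In EIF4A2 each table held 1 position that the other lacked. In these 9 genes the additional sites were thus upstream, between and downstream of the shared ones. A site missing from a table may have had too few reads or may not have been used, and these cannot be told apart without counts.

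**Figure D2:**
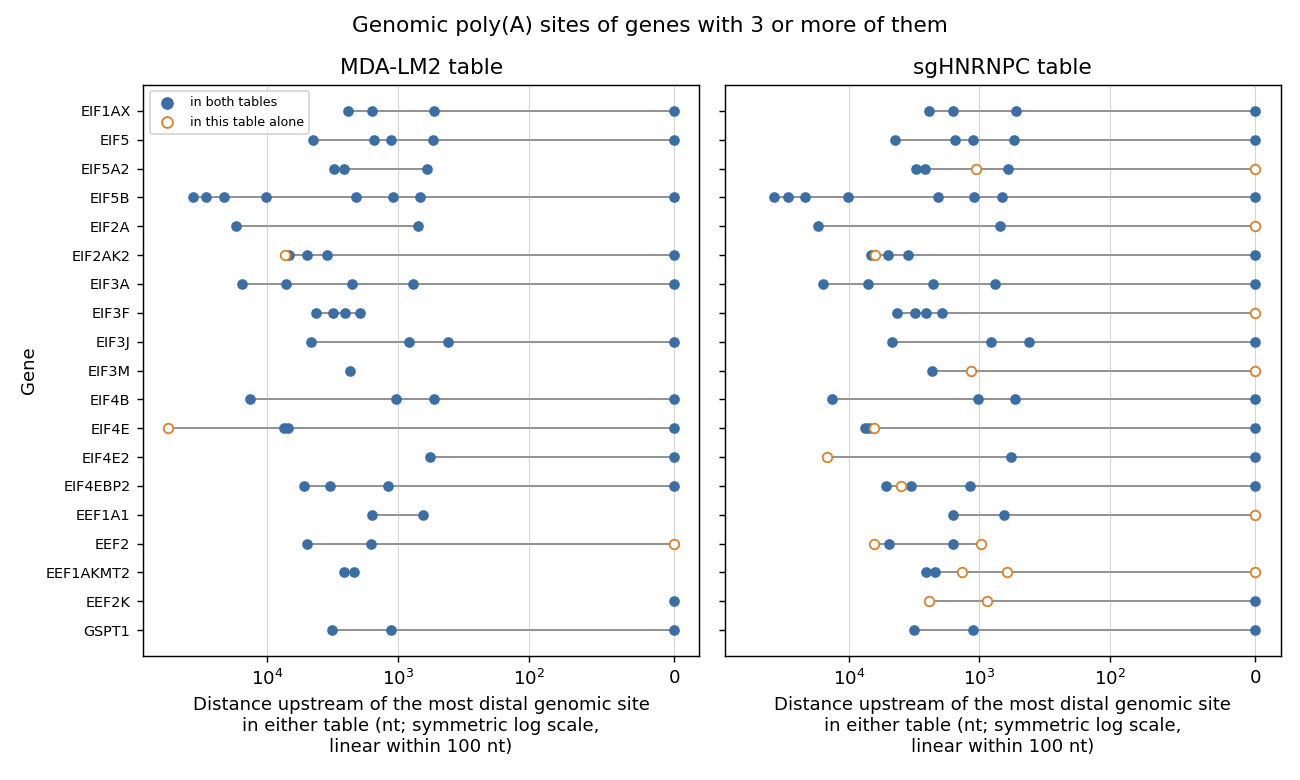
Genomic poly(A) sites of the translation factor genes with 3 or more of them in either table, drawn as the distance in nt upstream of the gene's most distal genomic site in either table (x axis, symmetric log scale), with filled points for sites in both tables and open points for sites in that table alone. EIF5B, with 8 positions over 37041 nt, showed the same points in both panels, and EEF1AKMT2 showed 3 open points in the sgHNRNPC panel.

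Listed sites came in 2 kinds, genomic positions and ends of annotated transcripts. Positions made up 94 of 179 member sites in the MDA-LM2 table, or 52.5% beside 45.4% over all genes, and 113 of 208 in the sgHNRNPC table, or 54.3% beside 48.7%. Neighbouring positions of a member gene lay a median of 1026.5 nt apart over 54 gaps in the MDA-LM2 table, beside 880.5 nt over all genes. In the sgHNRNPC table the median was 903.0 nt over 70 gaps, beside 791.0 nt. Gaps of at most 500 nt made up 18.5% of the members' gaps in the MDA-LM2 table, beside 1098 of 4220 gaps over all genes. Gaps of over 2000 nt made up 31.5% of the members' gaps, beside 23.7% over all genes. The outermost positions of a gene were a median of 3127.0 nt apart in 28 members, beside 1872 nt over all genes. The coordinates of these positions did not match GRCh38, since 15 of 120 fell within 5000 nt of their gene there, or 12.5% beside 12.7% over all genes. Only distances between positions are therefore given.

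Transcript ends could be placed on GRCh38 by identifier and version. Of 101 ends listed for members in either table, 87 were placed, or 86.1% beside 89.1% over all genes. The last base of the reference transcript was the listed end in 31 of the 87, or 35.6% beside 37.6% over all genes. Counting ends within 10 nt of it, 38 of the 53 genes had such an end placed, or 71.7% beside 68.7%. Ends that could not be placed include earlier versions of the reference transcripts of EIF2S1, EIF4B, EIF4E, EIF4G3 and EIF4H. Shares at or near the reference end may therefore be understated for the members. Ends of all genes were placed by the same rule. Past the coding part of the last exon but before the reference end lay 17 ends, or 19.5% beside 25.9%, some of them among those within 10 nt of it. None lay in the coding part of the last exon, beside 3.02% over all genes. An earlier exon held 31 ends, or 35.6% beside 23.7% over all genes, an intron held 4, and 4 lay downstream of the reference end. The ends before the reference end were a median of 4679.5 nt upstream of it over 52 ends, beside 4056 nt over all genes. The outermost placed ends of a gene lay a median of 6398 nt apart in 25 members, beside 5920.5 nt.

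An end in an earlier exon or an intron was listed for 26 of the 53 genes, or 49.1% beside 32.6% of all genes. It was 1 of the sites in 92 of the members' 337 pairs in the MDA-LM2 table, or 27.3% beside 26.9% over all genes. In the sgHNRNPC table it was in 101 of 416 pairs, or 24.3% beside 20.7%. As annotated, the transcripts of such a pair differ in more than the length of the 3′ UTR. Some of these transcripts are marked as not reaching the end of the mRNA. Whether finished mRNAs stop at these ends was not tested. GSPT1 has ends in earlier exons and in the last exon. Its 5 ends lay 19479, 14887, 4991, 4551 and 0 nt upstream of the reference end. The first 2 were in earlier exons and the rest in the last exon. The first carries that mark, and the second lies at an exon border.

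**Figure D3:**
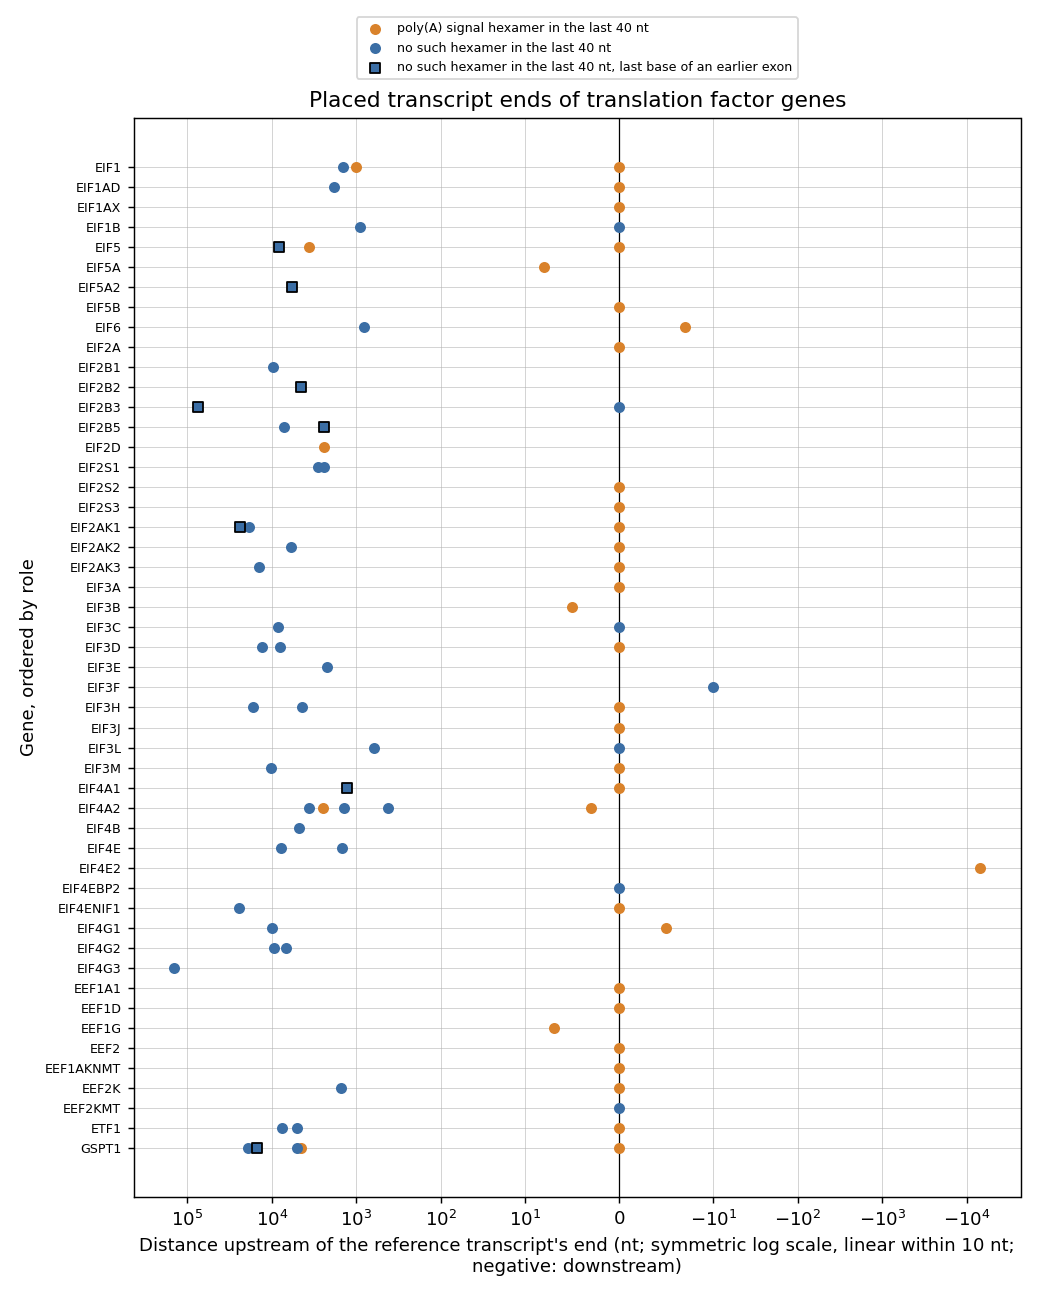
Distance in nt of each placed transcript end upstream of the reference transcript's end (x axis, symmetric log scale, negative values downstream) for each translation factor gene (y axis), coloured by whether a poly(A) signal hexamer lies in the last 40 nt, with squares for ends at the last base of an earlier exon. Most ends with the hexamer lie at or within 10 nt of 0, and the 8 squares all lack it.

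The poly(A) signal followed the place of the end. AATAAA or ATTAAA, searched on the sense strand in the last 40 nt, was present in 37 of the 87 placed ends, a share of 42.5% (95% Wilson interval 32.7 to 53.0) beside 47.7% of all placed ends. AATAAA alone was present in 33.3%, beside 38.0%. The hexamer started between 19 and 33 nt before the end, with a median of 23 nt. At the reference end it was present in 25 of 31 ends, or 80.6% beside 82.3% over all genes. Elsewhere in the 3′ UTR of the last exon it was present in 7 of 17, or 41.2% beside 41.7%. Of those 7, the ends of EIF4A2, EIF3B, EEF1G and EIF5A lay within 10 nt of the reference end. Without ends that close to it, and without the GSPT1 end in the stop codon, the hexamer was present in 3 of 12, beside 887 of 2558 ends over all genes, a division chosen after seeing the data. In an earlier exon it was present in 0 of 31, beside 4.15%, or 114 of 2750 ends, over all genes. A count of 0 was taken to allow up to 3, which puts the share at up to 9.68% of the 31 ends. That limit treats the ends as independent, although some genes gave several.

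**Figure D4:**
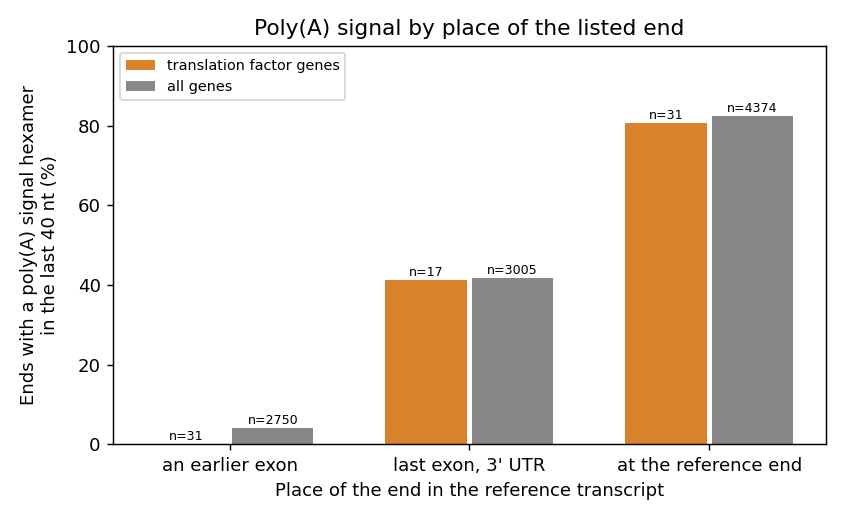
Share of placed transcript ends with a poly(A) signal hexamer in the last 40 nt (y axis, percent) by place of the end in the reference transcript (x axis), for translation factor genes and for all genes, with the number of ends above each bar. The share among members was 0 in earlier exons, 41.2% in the 3′ UTR of the last exon, where ends within 10 nt of the reference end are included, and 80.6% at the reference end.

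Introns held the hexamer at 2 of 4 ends, in EIF2D and in EIF4A2, beside 110 of 517 ends over all genes. SNORA63, a small nucleolar RNA, was among the genes whose transcripts share sequence with the last 300 nt before that EIF4A2 end. Of the 4 ends downstream of the reference end, 3 held the hexamer, beside 442 of 615 ends over all genes, and that of EIF4E2 lay 14432 nt beyond it. The reference ends without the hexamer belonged to EEF2KMT, EIF1B, EIF2B3, EIF3C, EIF3L and EIF4EBP2. These letters are not in the last 40 nt there, which says nothing of other signals.

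Ends in earlier exons had 2 other features. The annotation marks 11 of the 31 as not reaching the end of the mRNA, or 35.5% beside 41.7% over all genes, which means that the annotated transcript is known to be incomplete. Over all placed ends such marks were on 11 of 87, or 12.6% beside 11.7%. The last base of an earlier exon was the end in 8 of the 87, or 9.20% beside 3.68% over all genes. Of these, the ends of EIF4A1, EIF5 and EIF5A2 also carry the mark of an incomplete transcript. All 8 were followed by GT in the genome, as were 424 of the 428 such ends over all genes. The 8 were ends of EIF2AK1, EIF2B2, EIF2B3, EIF2B5, EIF4A1, EIF5, EIF5A2 and GSPT1, which were named after their values were seen. None of the 8 held the hexamer.

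The kinds of transcript that the ends belonged to were also counted. Protein-coding transcripts gave 52 of the 87 ends, or 59.8% beside 65.1% over all genes. Retained-intron transcripts gave 19, or 21.8% beside 1393 of 11622 ends over all genes, and those marked for nonsense-mediated decay gave 8, or 9.20% beside 9.16%. EIF4A2 alone gave 5 of the 19 retained-intron ends.

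Runs of T, which would be runs of uridine in the RNA, were counted because HNRNPC binds them. A run of at least 5 T within 100 nt on either side of the end was present for 45 of the 87 ends, a share of 51.7% (95% Wilson interval 41.4 to 61.9) beside 52.1% over all genes. In the 3′ UTR of the last exon it was present for 11 of 17 ends, or 64.7% beside 52.7%. At the reference end it was present for 15 of 31, or 48.4% beside 61.2%. Ends in earlier exons had it in 16 of 31, or 51.6% beside 41.1%. GSPT1 had such a run at 4 of its 5 ends, and both placed ends of EIF2AK2 had one. Of the study's 98 designed sequences from HNRNPC CLIP sites in 3′ UTRs, 95 lay in an annotated transcript of the 7504 listed genes and 0 in one of the 53 members. These sequences were a selection for a reporter library, so the count says nothing of HNRNPC binding to the members.

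Genomic runs of A just after an end, at which an oligo(dT) primer can bind inside a transcript, were rare. A run of at least 6 A in the next 20 nt was present for 1 of the 87 ends, or 1.15% beside 4.16% over all genes. That end lay in an earlier exon of EIF4G1, 10054 nt upstream of the reference end.

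Some of these genes share sequence with transcripts annotated to other genes, which bears on how reads can be assigned. For 20 of the 87 ends, over 10% of the 31-nt words in the last 300 nt of the transcript also occurred in a transcript of another gene. For 6 ends every word did. These were both ends of EIF4A1 and both of EIF3L, of which the reference end shared words with 1260 other genes, the reference end of EIF3C, which is shared with EIF3CL, and the end of EEF1G. The end of EIF3C in an earlier exon shared 79.6% with EIF3CL, and that of EIF4B shared 75.6%, with EIF4BP7 among its copies. EIF5A shared 61.1% with its copies, EIF4E 47.4% at its end in an earlier exon and EEF2KMT 49.3% with FAM86 genes. Salmon divides reads that match several targets by a model, and how far this affects site use in these genes was not tested. The listed reference ends of EEF1A1, EEF2, EIF5B and EIF3A shared 0% of their words.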

How the data were processed

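Poly(A) sites were profiled by 3′-end RNA-seq (QuantSeq) in 8 samples, with 2 replicates per group (sgControl, sgHNRNPC, MDA-LM2 and its parent MDA-MB-231). The authors annotated unique 3′ ends from Gencode release 33, counted reads with Salmon 0.14.1 and fitted APAlog to pairs of sites; the submitters' processing notes also name UMI-tools. The 2 deposited tables hold, per pair, the names of the proximal and the distal site and 3 columns of the authors' own comparison, a log ratio, a p-value and a q-value. Those 3 columns were not used, and no value of a single sample was available, so depth is unknown and no test was made.

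Sites were counted per gene, separately in each table. The order of sites follows the pairs. The processing notes name hg38, which is GRCh38, but the genomic positions in the tables do not match it and the tables name no build, so only distances were taken. Transcript ends were placed by identifier and version in GENCODE release 44, and sequence was read from GRCh38 with pysam 0.24.0. Counting was done in Python 3.11.15 with pandas 2.3.3, intervals came from scipy 1.17.1 and plots from matplotlib 3.10.9. Helper functions were tested on simulated data. Shares over ends carry a 95% Wilson interval where given, which covers counting error only. The members, role lists and motifs were chosen with earlier results of these data known. The genes named are all members of each role list with their counts of sites. Positions and sequences are given for the members with most sites in each role and for those with the largest difference in number of sites between the tables, and other genes given so were chosen after their values were seen. Alternatives counted 1 kind of site, other windows, other runs and subsets of members. A share was taken as unmoved within the main value's interval, and a median or count within 1.5 times the main value. One sequence is not reported here.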

Additional observations from a re-analysis of the deposited data

How the results depend on the processing

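The tables give no depth, so whether a site missing from 1 of them was absent or too shallowly read is unknown. Counting genomic positions alone or transcript ends alone lowered the median number of sites per member gene in the sgHNRNPC table from 4.0 to 2.0 each, because each setting keeps fewer sites. The share of placed ends with a run of at least 5 T within 100 nt, 51.7%, was 27.6% for runs of at least 6 T, 29.9% within 50 nt and 33.3% for runs of A in place of T, where the first 2 settings are stricter by construction. The median distance between the outermost placed sites of a gene, 6398 nt for transcript ends, was 3127.0 nt for genomic positions. The share of ends with a poly(A) signal lay between 33.3% and 47.1% over its 3 alternatives, within the interval of the reported share, and the number of genes with the same sites in both tables lay between 25 and 36. The share for ends in the 3′ UTR of the last exon, 41.2% or 7 of 17, was 3 of 12 without ends within 10 nt of the reference end or in the stop codon, an alternative chosen after seeing the data. No paired analysis was possible because no result comes from a test or from single samples, and leaving out each replicate in turn was not run for the same reason.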
